A study of Mus musculus with 8 samples.

Results

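The 10 genes described here encode enzymes of glycolysis that fetal kidneys transcribe, chosen by name from the 21291 gene rows of a deposited expression table. They are the hexokinases Hk1 and Hk2, glucose phosphate isomerase Gpi1, the phosphofructokinases Pfkl, Pfkm and Pfkp, aldolase Aldoa, phosphoglycerate kinase Pgk1, pyruvate kinase Pkm and lactate dehydrogenase Ldha. All 10 names were found, and all 10 passed the filter on low values, 10 or more scaled counts in 4 or more libraries. The choice used names and not values, but it was made with earlier results of these data known.

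Glycolysis splits glucose into pyruvate and yields ATP without oxygen. Hexokinase traps glucose in the cell as glucose 6-phosphate, phosphofructokinase commits it to breakdown, and lactate dehydrogenase turns pyruvate into lactate so that the path can keep running. Several of the steps can be run by isoenzymes from separate genes that differ in tissue and regulation. In the fetal kidney, nephron progenitors are known for high glycolysis, and the proximal tubule cells that descend from them come to rely on mitochondrial oxidation and can make glucose.

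The libraries were polyA-selected RNA from both kidneys of mouse embryos at E14.5 (the label's embryonic stage), with 4 control and 4 mutant kidney pairs. Control kidneys were Etv4+/- and mutant kidneys Etv4-/-, and both groups carried Six2-GFPcre tg/+ and Etv5fl/fl. As labelled, the groups therefore differ at Etv4 alone, and the controls too lack a copy of Etv4 and carry the Cre together with floxed Etv5. Etv4 and Etv5 encode ETS family factors induced by FGF and RET signalling, and Six2 drives Cre in nephron progenitors and their descendants, whereas the Etv4 alleles as labelled are not tied to a cell type. Each library holds a whole kidney pair, so fewer cells of a type and less RNA per cell cannot be told apart. The labels call the controls littermates without saying which embryos shared a litter.

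Total estimated counts ran from 34114519 to 39548327 in 7 libraries and were 15515139 in control 4, where the single gene Lars2 took 18.4% of the count against 0.138% to 0.476% elsewhere. Counts were divided by a size factor per library (median of ratios), and every level below is such a scaled count unless it is said to be per kilobase. The mutated gene checks the labels: controls 1 to 4 held 2816, 2803, 2816 and 2311 scaled counts of Etv4, where mutants 1 to 4 held 294, 281, 219 and 164. Ddx3y, on the Y chromosome, was at 1553 to 1629 in the controls and at 0 in every mutant, so sex and genotype cannot be told apart, which touches the X-linked member Pgk1. Kidney markers (nephron progenitor, early nephron, podocyte, ureteric tip) were present in every library. A skeletal muscle list summed to 3610 in mutant 2 against 197 to 434 in the other 7 libraries.

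Per kilobase of principal transcript, the 10 enzymes spanned a wide range and kept nearly the same order in both groups. In controls Pkm was highest, at 30911 ± 2722 scaled counts per kilobase (SD, n = 4). Ldha followed at 20062 ± 1673 and Aldoa at 18386 ± 1835, whose ranges of mean ± SD overlapped. Pgk1 stood at 12816 ± 674 and Gpi1 at 6184 ± 341. These enzymes made up the abundant end of the order. The phosphofructokinases and hexokinases were rarer per kilobase. Pfkl stood at 2871 ± 120, Hk1 at 1301 ± 183 and Pfkm at 1020 ± 110, and Hk1 and Pfkm overlapped within their SD. At the bottom came Hk2 at 240 ± 63.0 and Pfkp at 72.8 ± 9.47. In mutants the per-kilobase levels of this last pair were 134 ± 18.0 for Hk2 and 128 ± 28.5 for Pfkp, no longer apart by more than their SD. Ldha and Aldoa, at 17958 ± 1955 and 18661 ± 1714 per kilobase in mutants, also overlapped within their SD.

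The only members whose 4 mutants did not overlap the 4 controls were the rarer of the listed hexokinases and the rarest of the phosphofructokinases. Hk2 was lower in every mutant and Pfkp was higher in every mutant, while the main isoforms Hk1, Pfkl and Pfkm overlapped between groups. Over all genes tested, 4.43% lay wholly lower in mutants and 4.17% wholly higher, and with 10 members a count of 1 in each direction is near that background. At an unadjusted limma p below 0.05 the same count was 1 lower and 1 higher, beside 5.72% of all genes lower and 6.33% higher. After Benjamini-Hochberg adjustment over 14974 genes in limma, 0 of the 10 members passed 0.05, where 0.301% of all genes did (45 genes). The median log2 fold change of the 10 members, mutant over control, was -0.05, beside 0.01 for all genes tested.

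**Figure D1:**
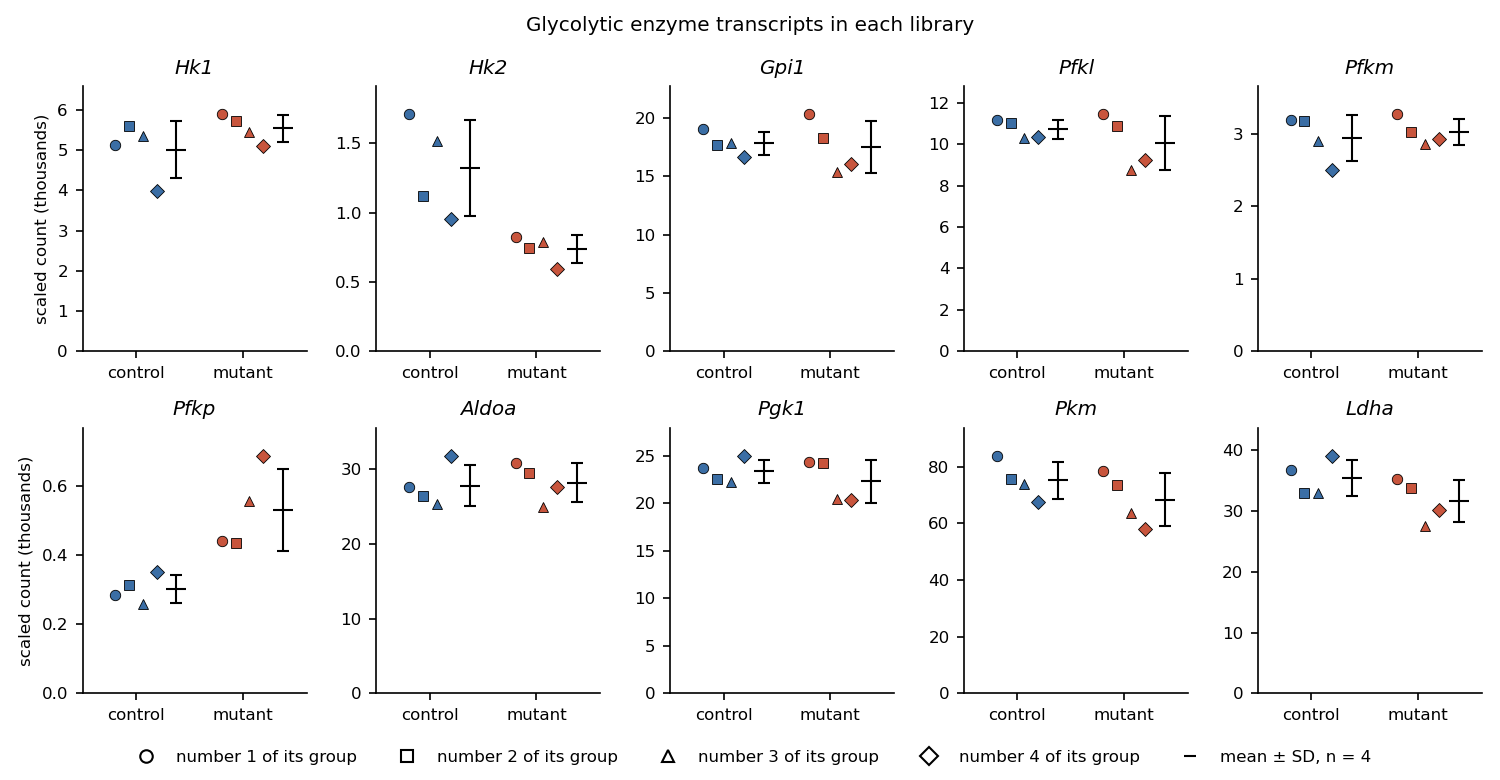
Scaled counts (axis in units of 1000, linear from 0) of the 10 enzymes in the 4 control (blue) and 4 mutant (red) libraries, with the group mean ± SD as bars. Hk2 is lower in all 4 mutants (598 to 822) than in any control (955 to 1709), and Pfkp is higher in all 4 mutants (434 to 684) than in any control (258 to 350).

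Hexokinase 2, the inducible isoform, had scaled counts of 1709, 1122, 1514 and 955 in controls 1 to 4. In mutants 1 to 4 it stood at 822, 744, 790 and 598. Every mutant was below every control, although control 4 and mutant 1 lay close together. The mean went from 1325 ± 347 to 738 ± 99.1 (SD, n = 4 each), a ratio of 0.557. On the log2(scaled count + 1) scale, the limma estimate was -0.81 (SE 0.19, 95% interval -1.23 to -0.40), with an unadjusted p of 0.00147 and an adjusted p of 0.111. Hk2 ranked 196th by p of 14974 genes tested. Some library names share a number between groups: c755 and m755 (controls 1 and 2, mutants 1 and 2), and c816 and m816 (control 4, mutant 4). Within the first set Hk2 had a log2 difference of -0.82, and within the other -0.67. No other name prefix is shared by both groups. Without control 4, the shallow library, limma gave -0.96 with an adjusted p of 0.0285, in a fit where 1.13% of all genes passed. The adjusted p over all 23 other fits ran from 0.00454 to 0.632, 4 of them below the threshold, and the sign was negative in each.

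Hk1, the hexokinase that most tissues express throughout life, stood at 5122, 5590, 5338 and 3994 in controls 1 to 4 and at 5882, 5729, 5435 and 5111 in mutants 1 to 4. Control 4 was the lowest of the 8, and the groups overlapped. The means were 5011 ± 705 and 5539 ± 341 (SD, n = 4), with a limma log2 fold change of 0.15 (SE 0.11, 95% interval -0.09 to 0.40) and an adjusted p of 0.617.

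Contrasting the isoforms within each library removes the size factor. The log2 ratio of Hk2 to Hk1 was -1.58, -2.32, -1.82 and -2.06 in controls 1 to 4. Mutants 1 to 4 had -2.84, -2.94, -2.78 and -3.09. The groups did not overlap, and control 2 was the control nearest to the mutants. The ratio in mutants was 0.511 times that in controls (difference -0.97 on the log2 scale). The two-sided exact permutation test over all 70 arrangements of the 8 libraries gave p = 0.0286, the smallest it allows, and 0.0857 after adjustment over the 6 isoform ratios tested. The difference was -0.94 within the c755 and m755 libraries and -1.03 within the c816 and m816 pair, where 2 against 2 and 1 against 1 allow no test at 0.05. Per kilobase, Hk2 made up 18.9%, 12.3%, 16.5% and 14.3% of the sum of Hk1 and Hk2 in controls 1 to 4. In mutants 1 to 4 its share was 8.89%, 8.31%, 9.22% and 7.55%. The mean share was 15.5% ± 2.85 in controls and 8.49% ± 0.730 in mutants (SD, n = 4). The summed level of both genes per kilobase, 1542 ± 221 in controls and 1572 ± 104 in mutants, had a ratio of 1.02. The split between the 2 isoforms thus differed without overlap while their mean sum was apart by less than its spread. That sum was 1640, 1655 and 1661 in controls 1 to 3 and 1210 in control 4. In mutants 1 to 4 it was 1677, 1622, 1555 and 1436. Most of the control spread thus came from control 4, the shallow library, and mutants 2 to 4 lay below controls 1 to 3.

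**Figure D2:**
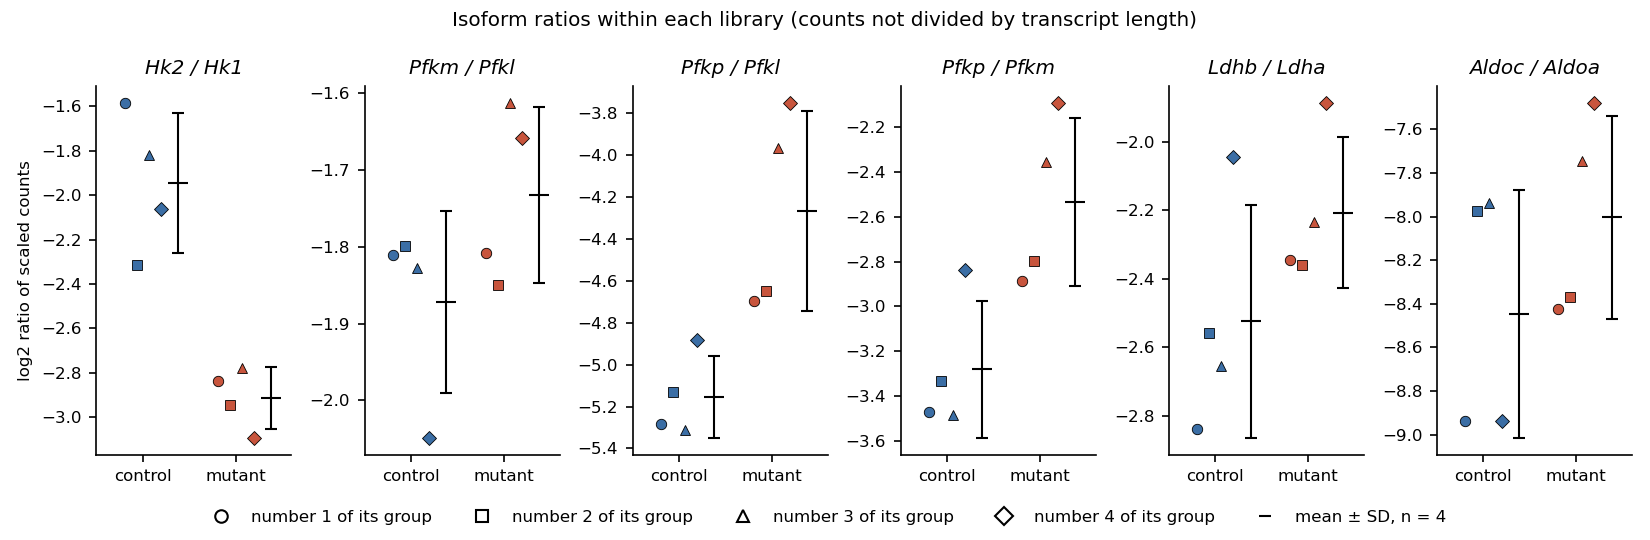
The log2 ratio of scaled counts of each isoform pair within each library (separate vertical axes, not starting at 0), controls in blue and mutants in red, with mean ± SD. Hk2/Hk1 and Pfkp/Pfkl are the 2 of 6 ratios without overlap between groups; control 4 has the lowest Pfkm/Pfkl of all libraries, at -2.05.

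The Hk2 and Hk1 promoters are shown because these isoforms parted. Both are the 250 bases before a RefSeq transcription start on GRCm38.p6, read 5′ to 3′ on the gene's strand. Hk2 (ENSMUSG00000000628) lies on the minus strand at chr6:82725025-82774454, and the window shown is chr6:82774455-82774704. Hk1 (ENSMUSG00000037012) lies on the minus strand at chr10:62268855-62379908, and the window is chr10:62340422-62340671, before a start inside the annotated gene. Capitals mark 3 motifs searched on both strands. ACGTG and GCGTG are the core forms of the element that hypoxia-inducible factors bind, and CCGGAA is a core of sites that ETS factors bind. Matches may overlap, and a match on the other strand is capitalised as its reverse complement.
Hk2: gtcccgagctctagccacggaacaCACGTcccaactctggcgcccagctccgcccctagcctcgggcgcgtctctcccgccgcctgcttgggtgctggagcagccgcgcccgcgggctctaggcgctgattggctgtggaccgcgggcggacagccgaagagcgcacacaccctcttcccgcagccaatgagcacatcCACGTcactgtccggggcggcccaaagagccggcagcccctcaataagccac
Hk1: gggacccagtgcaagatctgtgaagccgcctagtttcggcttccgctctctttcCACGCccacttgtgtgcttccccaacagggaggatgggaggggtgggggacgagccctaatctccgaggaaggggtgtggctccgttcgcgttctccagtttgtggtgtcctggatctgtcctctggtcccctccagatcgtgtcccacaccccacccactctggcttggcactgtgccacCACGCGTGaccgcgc
The Hk2 window held 2 ACGTG matches and none of the other 2 motifs, and the Hk1 window held 3 GCGTG matches, of which 2 overlap. The other Hk1 window, before the start of the annotated gene (chr10:62379909-62380158), held 0 matches to any of the 3 motifs. Among 32851 RefSeq windows of the same length, 16.6% held ACGTG, 28.2% GCGTG and 12% CCGGAA. For the 10 members, all of which matched a RefSeq gene, 8 of 18 windows held ACGTG (6 genes), 6 of 18 held GCGTG (5 genes) and 3 of 18 held CCGGAA (3 genes). A match describes letters in the window and is not evidence of binding.

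Phosphofructokinase subunits come from Pfkl (liver form), Pfkm (muscle form) and Pfkp (platelet form), and assemble as tetramers that may mix them. Pfkp had scaled counts of 285, 314, 258 and 350 in controls 1 to 4. Mutants 1 to 4 had 440, 434, 557 and 684. Mutants 3 and 4 were the highest, and the lowest mutant was above the highest control. The mean went from 302 ± 39.2 to 529 ± 118 (SD, n = 4 each), a ratio of 1.75. The limma log2 fold change was 0.79 (SE 0.17, 95% interval 0.41 to 1.18), with an unadjusted p of 0.00107 and an adjusted p of 0.104. By p it ranked 151st of 14974. Within the c755 and m755 libraries the log2 difference was 0.54, and it was 0.97 within the c816 and m816 pair. Without control 4 the estimate was 0.86 with an adjusted p of 0.0553. Over all 23 other fits the adjusted p ran from 0.0108 to 0.403, 1 of them below the threshold, and the sign was positive in each. The smallest count behind these values was 126 reads, the estimated Pfkp count of control 4.

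Pfkl, the main subunit here, was at 11157, 11028, 10297 and 10354 in controls 1 to 4 and at 11432, 10888, 8730 and 9221 in mutants 1 to 4. Mutants 3 and 4 lay below all controls, but mutants 1 and 2 lay among or above them. The limma log2 fold change was -0.10 (SE 0.10, 95% interval -0.32 to 0.12, adjusted p = 0.735). Pfkm was at 3181, 3168, 2899 and 2502 in controls and at 3263, 3020, 2854 and 2920 in mutants, and the groups overlapped. Its limma log2 fold change was 0.04 (SE 0.09, 95% interval -0.17 to 0.25, adjusted p = 0.896).

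The log2 ratio of Pfkp to Pfkl was -5.15 ± 0.20 in controls and -4.27 ± 0.48 in mutants (SD, n = 4), with no overlap. In mutants the ratio was 1.85 times that in controls. The exact permutation p was 0.0286, or 0.0857 adjusted over the 6 ratios, and the difference was 0.54 within c755 and m755 and 1.13 within c816 and m816. Pfkp against Pfkm differed by 0.75 with overlap (exact permutation p = 0.0571, adjusted 0.114), and Pfkm against Pfkl by 0.14 (exact permutation p = 0.229, adjusted 0.229). Per kilobase, Pfkp made up 1.65%, 1.83%, 1.62% and 2.26% of the summed phosphofructokinase level in controls 1 to 4. In mutants 1 to 4 it made up 2.47%, 2.57%, 3.88% and 4.52%. Pfkl held 72.5% ± 1.33 in controls and 69.5% ± 2.22 in mutants, and Pfkm 25.7% ± 1.59 and 27.1% ± 1.30. Thus Pfkp stayed a minor subunit transcript in every library. The summed level per kilobase, 3964 ± 218 in controls and 3874 ± 383 in mutants, had a ratio of 0.977, apart by less than its spread.

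**Figure D3:**
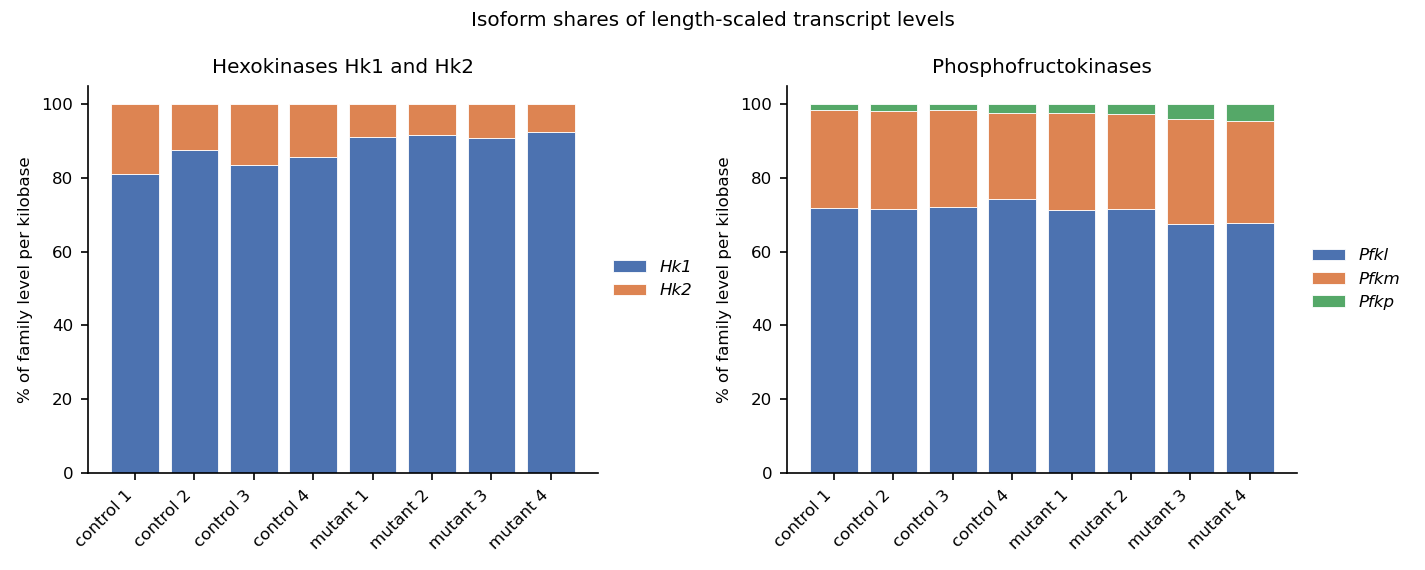
Share (%) of the summed level per kilobase that each isoform takes in each library, for Hk1 and Hk2 (left) and the phosphofructokinases (right); bars run from 0 to 100%. Hk2 takes 12.3% to 18.9% in controls and 7.55% to 9.22% in mutants, and Pfkp takes 1.62% to 2.26% and 2.47% to 4.52%.

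The Pfkp and Pfkl promoter windows are given for the same contrast, again 250 bases before a RefSeq start on GRCm38.p6, on the minus strand for both. Pfkp (ENSMUSG00000021196) spans chr13:6579768-6648777 and its window is chr13:6648772-6649021. Pfkl (ENSMUSG00000020277) spans chr10:77986947-78010083 and its window is chr10:78009808-78010057. Capitals mark the same 3 motifs.
Pfkp: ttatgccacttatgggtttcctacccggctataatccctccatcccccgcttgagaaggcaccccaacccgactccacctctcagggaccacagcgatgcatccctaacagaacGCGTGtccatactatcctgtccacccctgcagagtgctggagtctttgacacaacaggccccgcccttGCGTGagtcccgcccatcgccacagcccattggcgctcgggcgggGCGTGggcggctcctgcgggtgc
Pfkl: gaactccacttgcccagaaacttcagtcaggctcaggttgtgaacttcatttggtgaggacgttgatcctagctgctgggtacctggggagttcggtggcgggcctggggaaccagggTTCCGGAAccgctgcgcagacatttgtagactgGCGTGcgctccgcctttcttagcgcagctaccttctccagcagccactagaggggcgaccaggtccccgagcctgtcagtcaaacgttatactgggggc
The Pfkp window held 3 GCGTG matches. The Pfkl window held 1 GCGTG match and 2 overlapping CCGGAA matches, which together read TTCCGGAA.

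The remaining members carry carbon from glucose 6-phosphate to lactate, and the groups overlapped for each of them. Gpi1, which converts glucose 6-phosphate to fructose 6-phosphate, had 17834 ± 984 scaled counts in controls and 17502 ± 2253 in mutants (SD, n = 4; limma log2 fold change -0.03, SE 0.10, adjusted p = 0.925). Aldoa, which cleaves fructose 1,6-bisphosphate, had 27781 ± 2773 and 28196 ± 2590 (limma 0.02, SE 0.10, adjusted p = 0.956). Pgk1, the first enzyme of the path that makes ATP, had 23389 ± 1230 and 22353 ± 2257 (limma -0.07, SE 0.09, adjusted p = 0.816). Their 95% intervals ran from -0.26 to 0.19, from -0.21 to 0.25 and from -0.28 to 0.14 on the log2 scale.

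Pkm, which forms pyruvate and ATP, was at 83625, 75504, 74057 and 67512 in controls 1 to 4 and at 78394, 73423, 63818 and 58065 in mutants 1 to 4. Ldha, which forms lactate, was at 36727, 33023, 32976 and 38992 in controls and at 35214, 33800, 27587 and 30256 in mutants. For both, mutants 3 and 4 were below every control and mutants 1 and 2 were not. The limma log2 fold changes were -0.14 for Pkm (SE 0.13, 95% interval -0.42 to 0.14, adjusted p = 0.697) and -0.16 for Ldha (SE 0.11, 95% interval -0.40 to 0.08, adjusted p = 0.584). Gpi1, Pfkl and Pgk1 shared this split of the mutants, with mutants 3 and 4 below all 4 controls. Among the 8 members other than Hk2 and Pfkp, 0 passed the adjusted threshold in any of the 23 other limma fits, and the SD of log2 levels over the 8 libraries was 0.11 to 0.17, against 0.52 for Hk2 and 0.49 for Pfkp.

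**Figure D4:**
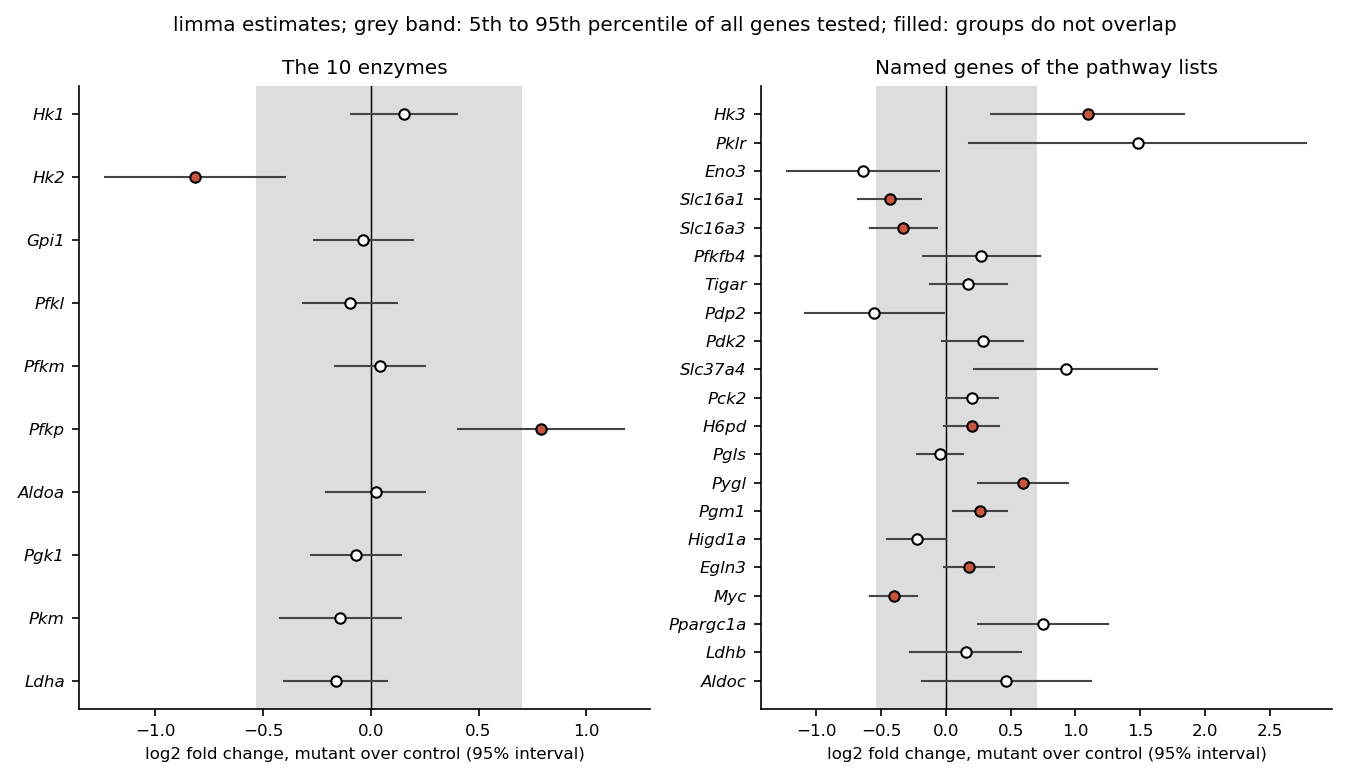
The limma log2 fold change (mutant over control) with its 95% interval for the 10 enzymes (left) and named genes of the pathway lists (right); filled points are genes whose groups do not overlap, and the grey band spans the 5th to 95th percentile of all genes tested, -0.53 to 0.70. Hk2 at -0.81 and Pfkp at 0.79 are the members outside the band.

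Summed over the 10 members, controls 1 to 4 held 212275, 196432, 192868 and 197995 scaled counts. Mutants 1 and 2 held 210951 and 200067, within the control range, and mutants 3 and 4 held 170481 and 170812, below it. The proximal tubule marker list (8 of 8 markers found) separated the same libraries: it summed to 834 and 966 in mutants 1 and 2 and to 6031 and 14750 in mutants 3 and 4. In controls 1 to 3 it was 307, 866 and 566. It was 4955 in control 4, whose scaled member sum was within the range of the other controls. As a share of all counts other than Lars2, the members held 0.565% in control 4, 0.554% in mutant 3 and 0.552% in mutant 4. That share was 0.608% to 0.669% in the other libraries, so the place of control 4 depended on the scaling. The part of these cells in the member sums was not tested.

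Marker lists of several cell types were also apart between the groups. The nephron progenitor list (8 of 8 markers) summed to 45373, 30527, 39659 and 23989 in controls 1 to 4, and to 23209, 20723, 14274 and 11054 in mutants 1 to 4. The controls stood in the same order for Hk2, for this list and for the stroma list (125309, 73168, 102657 and 43276). Most of that stroma sum was Col1a1, at 110276, 61028, 89812 and 33734. Foxd1 and Meis1 of the stroma list stood in the same order, whereas Pdgfrb and Tbx18 did not. In mutants Hk2 was higher in mutant 3 than in mutant 2 and the progenitor list was not. The ureteric tip list (5 of 5, Etv4 among them) ran from 11995 to 17131 in controls and from 4257 to 8046 in mutants. The nephron progenitor and ureteric tip lists were lower in every mutant, as Hk2 was. Higher in every mutant, as Pfkp was, were the early nephron list (11895 to 16471 against 19161 to 21913), podocytes (7038 to 8480 against 8649 to 15329), endothelium (12419 to 16329 against 17274 to 19807) and macrophages (1775 to 2691 against 3111 to 3419). Lists that overlapped between groups were ureteric trunk (7052 to 10913 in controls, 9036 to 13997 in mutants), loop and distal tubule (918 to 3348, 1199 to 3848), stroma (43276 to 125309, 91398 to 97216), erythroid cells (178735 to 309474, 208705 to 407305; 7 of 8 markers found) and neurons (680 to 854, 311 to 697). No marker found was at 0 in every library. The part of these cell types in the Hk2 and Pfkp differences was not tested.

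**Figure D5:**
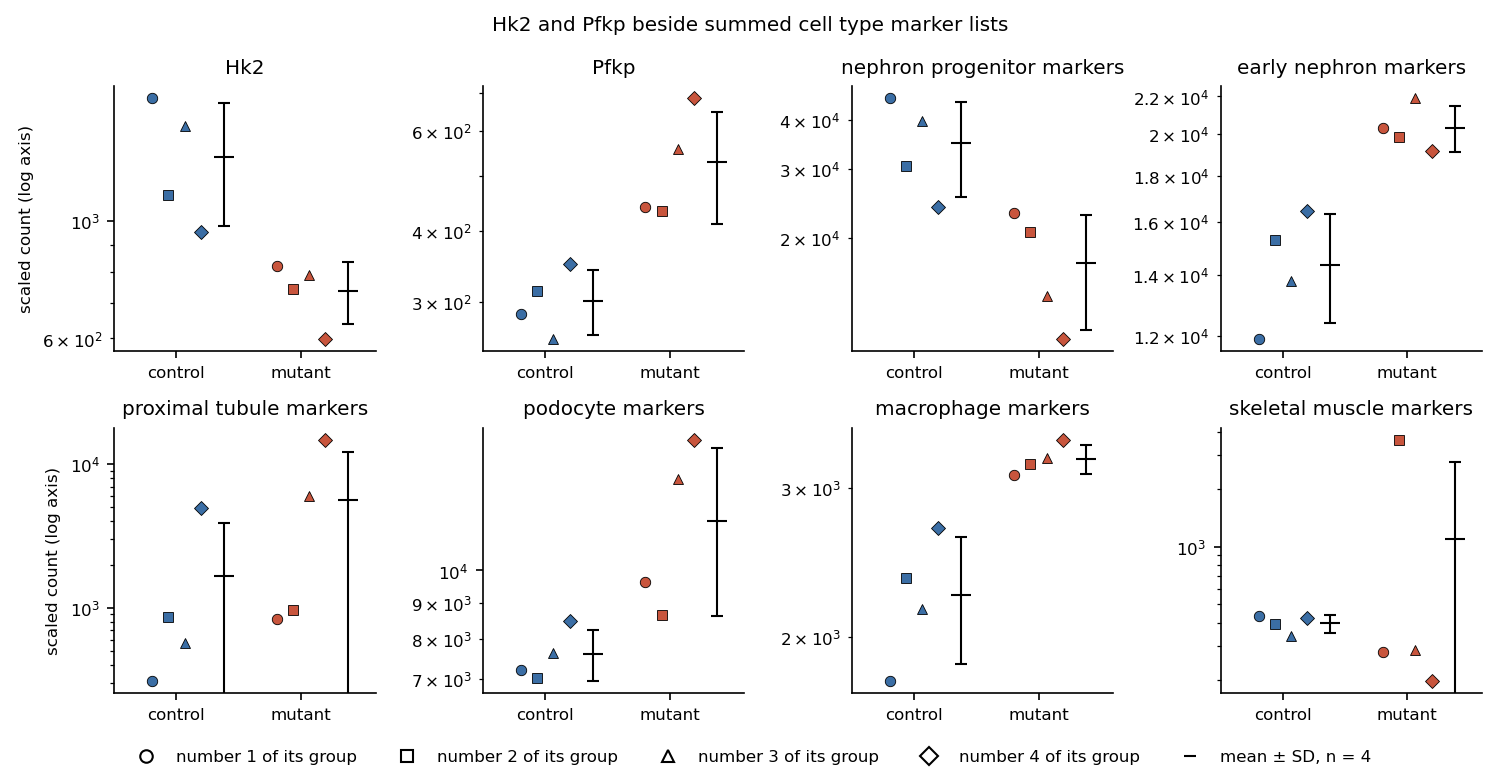
Scaled counts of Hk2, Pfkp and 6 summed marker lists in each library (log axes), controls in blue and mutants in red, with mean ± SD; a bar that reaches the lower edge has a mean minus SD below the axis. Nephron progenitor markers are lower in all mutants (11054 to 23209 against 23989 to 45373), and the tubule list is high in control 4 and mutants 3 and 4.

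The genes whose log2 profile over the 8 libraries lay nearest to that of Hk2, by root mean square difference after centring, were Syt7 (0.104), Med1 (0.115) and Gas1 (0.123). Nearest to Pfkp were Eps8l2 (0.119), Fcrls (0.120) and Cyp1b1 (0.127). These distances are descriptions over the same 8 libraries, which share depth and tissue makeup.

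The other genes of the pathway were followed in 10 lists holding 101 genes, of which 99 were found and 95 tested. After adjustment over all genes in limma, 0 of the 95 passed. At an unadjusted p below 0.05, 6 were higher and 7 lower, near the shares of all genes (6.33% and 5.72%). Without overlap, 7 lay above and 5 below the controls, beside 4.17% and 4.43% of all genes. Counts for the separate lists below are to be read against these same shares, and counts of positive estimates against 7742 of 14974 for all genes. With 5 to 15 genes a list, a count of 1 or 2 sets no list apart. The median log2 fold change of the 95 was 0.05. The regulator Myc and the lactate exporters were the members of these lists nearest to the threshold on the low side.

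Glucose enters through Slc2a transporters and lactate leaves through the monocarboxylate carriers Slc16a1 and Slc16a3. Of 10 transporters tested, 0 were higher and 2 lower at an unadjusted p below 0.05. Slc16a1 was at 2314, 1869, 2213 and 1854 in controls 1 to 4 and at 1667, 1644, 1458 and 1335 in mutants, wholly lower (limma log2 fold change -0.43, SE 0.11, adjusted p = 0.141). Slc16a3 was at 2067, 2171, 1753 and 1766 against 1748, 1551, 1280 and 1617, also without overlap but by a narrow margin (limma -0.33, SE 0.12, adjusted p = 0.295). The signs of both turned positive only in the fit without any correction for depth, at 0.04 and 0.14. Slc2a1, the widespread glucose transporter, had means of 3154 ± 542 and 2799 ± 619 (SD, n = 4).

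Of 6 other isozymes of the first steps tested, 5 estimates were positive (7742 of 14974 over all genes), with a median log2 fold change of 0.58. At an unadjusted p below 0.05, 1 of the 6 was higher, and 0 passed adjustment in limma. Hk3, the hexokinase typical of myeloid cells, was at 21.2, 41.1, 27.0 and 41.5 in controls and at 55.5, 57.9, 67.1 and 101 in mutants, without overlap (limma 1.09, SE 0.33, adjusted p = 0.221). Aldoc, against Aldoa within a library, differed by 0.44 on the log2 scale (exact permutation p = 0.229, adjusted 0.229).

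Among 9 other lower-path enzymes tested, 1 was higher and 2 lower at an unadjusted p below 0.05, with a median of 0.01. Eno3, the muscle enolase, was at 2054, 1730, 1997 and 1251 in controls and 1511, 1579, 807 and 781 in mutants, overlapping (limma -0.64, SE 0.26, adjusted p = 0.362). Pklr, the pyruvate kinase of liver and red cells, differed by 1.48 (SE 0.58, adjusted p = 0.344 in limma) at scaled counts of 31.8 to 284. Ldhb, whose product favours pyruvate, had a ratio to Ldha that differed by 0.32 on the log2 scale (exact permutation p = 0.171, adjusted 0.229), with control 4 the highest control. Per kilobase, Ldhb held 19.3% ± 3.82 of the Ldha and Ldhb sum in controls and 22.8% ± 2.78 in mutants.

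Few regulatory genes had small p-values. For the 5 genes that set fructose 2,6-bisphosphate, the allosteric activator of phosphofructokinase, 0 passed even at an unadjusted p below 0.05. Pfkfb4 differed by 0.28 and Tigar by 0.17. Of 12 genes of pyruvate entry and pyruvate dehydrogenase control, 0 were higher and 1 lower at that level: Pdp2, a phosphatase that activates the complex, at -0.55 (SE 0.24, adjusted p = 0.395 in limma), while the kinase Pdk2 was at 0.28. Of 15 hypoxia-inducible factor targets tested, 0 passed at that level in either direction, with a median of 0.04. Egln3, an oxygen sensor of that pathway, was at 0.18 without overlap, and Higd1a at -0.22.

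Among 12 regulators, Myc, which drives transcription of many glycolytic genes, was at 1841, 1517, 1716 and 1719 in controls 1 to 4 and at 1269, 1272, 1301 and 1280 in mutants 1 to 4. Every mutant was below every control, and the mutants lay within a narrow range. The limma log2 fold change was -0.40 (SE 0.08), with an adjusted p of 0.0834, and it turned positive, at 0.07, only without depth correction. Ppargc1a, a coactivator of mitochondrial genes, was at 136 ± 34.6 and 229 ± 46.9 (limma 0.75, SE 0.22, adjusted p = 0.218). Hif1a was at 5674 ± 431 and 5967 ± 179 (SD, n = 4).

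The side branches gave a similar picture. Of 13 genes of glycogen and other branches, 2 were higher and 1 lower at an unadjusted p below 0.05, and 12 of 13 estimates were positive, beside 7742 of 14974 for all genes. Pygl, liver glycogen phosphorylase, was at 1119, 1568, 1279 and 1699 in controls and at 1808, 1920, 2216 and 2603 in mutants (limma 0.60, SE 0.16, adjusted p = 0.155). Pgm1, which links glycogen to glycolysis, was at 0.26, also without overlap, though its row is identical to that of another gene identifier and cannot be assigned to a single gene. Of 5 gluconeogenesis genes tested, 1 was higher at that level: Slc37a4, the glucose 6-phosphate translocase, at 0.92 (SE 0.32, adjusted p = 0.273 in limma), beside Pck2 at 0.20. In the pentose phosphate pathway 0 of 8 passed at that level, with H6pd at 0.20 and Pgls at -0.04.

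The authors' deposited table lists Hk2 with a log2 fold change of -0.969 (standard error 0.164, adjusted p = 7.76e-07). Its 644 genes are a subset named as differentially expressed, so they were already selected. In the authors' deposited table Pfkp stands at 0.888 (standard error 0.194, adjusted p = 0.00043), and the other 8 members are not among its genes. Of the pathway lists the authors' deposited table holds 10 genes, 9 positive and 1 negative, beside 383 positive and 261 negative over its 644 genes. Among the 10 are Slc37a4 at 1.23, Pygl at 0.693 and Pdp2 at -0.745. Mean normalized counts in the authors' deposited table matched, within 0.1%, the mean over 7 libraries without control 4 for 626 of 628 genes, and the mean over all 8 for 0 of 628. Its adjusted p-values and those from limma above therefore rest on different sets of libraries as well as different tests.

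Some limits of gene-level counts touch these members. Pkm splice forms are not separated, and Aldoa, Pgk1 and Ldha have processed copies elsewhere in the genome that can share reads. Hk1, Hk2, Gpi1, Pfkm, Pfkp and Aldoa overlap a gene on the opposite strand, and the sources used here do not say whether counting used strand. Pfkm and Pkm also overlap a gene on the same strand (Gm26513 and Gm49759). Aldoa is the symbol of 2 annotated identifiers, and which of them its row holds is uncertain.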

How the data were processed

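PolyA-selected RNA of 8 kidney pairs was sequenced as paired reads, per the labels. The submitters' processing notes name kallisto 0.46.0, fastp 0.23.2, DESeq2 1.40.2 and build mm10, and the sources used here do not give roles or settings. The authors deposited log2 values for 21291 gene rows, called normalized. Per the values these are log2(estimated count + 1) without depth correction, which the fixed design had foreseen. Whole counts within 1e-06 came back from 73.4% of all values, and from 67.8% of the values above 0. The authors' deposited table of 644 genes gives a mean normalized count (a signal), log2 fold changes, p-values and a score (the test statistic).

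Recovered counts were divided by median-of-ratios size factors, from 0.361 in control 4 to 1.27 in control 2. The 14974 genes with 10 or more scaled counts in 4 or more libraries entered limma (version 3.58.1, R 4.3.3; eBayes with trend) on log2(scaled count + 1), genotype as the single term, two-sided, Benjamini-Hochberg adjusted, threshold 0.05. Such fold changes understate low genes. The fit was tested on simulated data. The 6 isoform ratios used two-sided exact permutation over 70 splits. Lengths and loci are from GENCODE M21 (GRCm38), promoters from RefSeq (GRCm38.p6).

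The members and lists were chosen with earlier results of these data known. Named genes are the 10 members, the 2 genes of smallest p in each pathway list (none passed), the genes of the ratios, and the 3 nearest profiles to members with a log2 SD of at least 0.3; other names were chosen after their values were seen. A gene that this rule names is not reported here. Replicates share a label and a count of kidney pairs but nothing on litter, so p-values measure the spread between these samples. The replicate numbers of controls and mutants were not taken as pairs. Alternatives covered scaling, filter, pseudocount, trend, weights, blocks and each library left out. Python 3.11.15 and matplotlib 3.10.9 drew the figures.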

Additional observations from a re-analysis of the deposited data

Results flagged for a closer look

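In 7 of 102 groups of 4 screened, the highest or lowest library stood apart from the other 3 by Dixon's test, which chance does for about 1 group in 20. Control 4 was the library apart in 5 of them. Its Pklr scaled count was 106.7 against 31.8 to 39.6 in the other controls, its Ldhb 9457 against 5129 to 5604, and its Pgm1 1279 against 1154 to 1168. Its log2 ratio of Pfkm to Pfkl was -2.05 against -1.83 to -1.80, and its proximal tubule marker sum was 4955 against 307 to 866. Control 1 was low for H6pd, at 1580 against 1757 to 1762. Mutant 2 was high for the skeletal muscle marker sum, at 3610 against 197 to 288. Neither Hk2 nor Pfkp had a library apart in either group.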

How the results depend on the processing

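Of 10 members, the number past the adjusted threshold in limma was 0, and it was 2 with library weights (arrayWeights), 1 with the replicate block, 1 with c816 and m816 left out, and 0 to 1 over the fits without 1 library (1 without control 4). The count over all genes was 45, with 11 under total-count scaling, 80 without depth correction, 28 without the trend, 69 with limma voom, 748 with library weights, 186 without c816 and m816 and 16 in the c755 and m755 libraries alone. Leaving out 1 library gave 2 to 167: for controls 1 to 4 in turn 10, 45, 2 and 167, for mutants 1 to 4 in turn 13, 19, 9 and 23. The median log2 fold change of all genes, 0.01, became 0.14 under total-count scaling and 0.48 without depth correction. Hk2 and Pfkp kept their sign in all 23 other fits. Reversed signs under total-count scaling were Gpi1 0.098, Pfkl 0.036, Pgk1 0.063 and Pgls 0.089, and with Lars2 also removed Gpi1 0.027 and Pgls 0.018. Without depth correction they were Gpi1 0.44, Pfkl 0.37, Pgk1 0.40, Pkm 0.33, Ldha 0.31, Slc16a1 0.036, Slc16a3 0.14, Pgls 0.43, Higd1a 0.25 and Myc 0.066. With library weights Pgk1 was 0.013 and Pgls 0.016, and with the library-name number as a block Gpi1 was 0.028. Without c816 and m816 Pfkm was -0.018, Pgk1 0.0063 and Pgls 0.031. In the c755 and m755 libraries alone Gpi1 was 0.070, Pfkl 0.0083, Pfkm -0.016, Pgk1 0.070 and Pgls 0.041, and the difference in log2 Pfkm/Pfkl was -0.024. Over the fits without 1 library Aldoa ran from -0.023 to 0.087, Pfkm from -0.033 to 0.082, Gpi1 from -0.11 to 0.026 and Pgls from -0.090 to 4.55e-05. The cause was not tested. The replicate block gave 133 genes over all, with Hk2 at an adjusted p of 0.0224. Libraries of the same replicate number correlated in their deviations at 0.27, 0.098, -0.13 and 0.35. Mutants 2 and 3 each correlated best with a control of another replicate number, so replicate numbers do not pair the samples. By library name, c755 and m755 libraries correlated at 0.068 to 0.27, and c816 with m816 at 0.35. Controls 1 and 2 (c755) correlated with m816 at -0.29 and -0.12, and c816 with mutants 1 and 2 (m755) at -0.31 and -0.29. Control 3 (c775) correlated with mutants 1 and 2 at 0.17 and 0.14. What the library-name numbers stand for was not tested.

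Control 4 has 15515139 counts, so its values carry the largest counting error. With 4 libraries a group, 0.0286 is the smallest exact permutation p of an isoform ratio, and 0.0571 without 1 library. The 95% intervals of the 8 members other than Hk2 and Pfkp include differences in both directions, so small changes in them were not detectable here.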
